A study of Mus musculus with 15 samples.

Results

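The genes described here are the replication-dependent histone genes of the mouse, taken as the probe sets whose single gene symbol was H1f1 to H1f5 or began with H2ac, H2bc, H3c or H4c and a digit. This rule used names alone and found 22 probe sets of 21 genes, out of 21439 genes on 22399 probe sets with 1 symbol, in a table of 32736. Of them, 3 measured linker histone H1 genes, 6 measured H2A, 7 measured H2B and 6 measured H4. No H3 gene had a probe set with a single symbol, and H2ac21 had 2. RNA was measured on 15 one-colour arrays of whole adrenal glands from male wild type C57BL/6J mice, with 1 age, 6 weeks, given for all of them. Whether this is the age at the start was not stated. The control group (4 arrays) was taken before dexamethasone, a synthetic glucocorticoid given in the drinking water. The withdrawal group (3 arrays) was taken at the end of 14 days of dexamethasone, and the other groups 3 days (day 3, 4 arrays) and 7 days (day 7, 4 arrays) after it was stopped. No untreated group was taken at these later times, so treatment and the time that passed cannot be told apart in differences from control. Titles call the arrays of a group biological replicates, and the comparisons ask what happens while the suppressed gland regrows.

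Histones are the proteins around which DNA is wound in the nucleus. The replication-dependent genes lie in clusters, are copied into RNA chiefly in S phase, when new DNA has to be packaged, and their RNA is lost when DNA synthesis stops. Their messenger RNAs have no introns and no poly(A) tail, and end in a stem-loop bound by the protein Slbp. H2A, H2B, H3 and H4 form the core particle, and linker histone H1 binds the DNA where it enters and leaves it.

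Copies within a family are nearly alike in sequence, so probes of one can bind RNA of another. Of 62 protein-coding mouse genes that meet the naming rule in RefSeq, 21 had a probe set of their own, 40 were found only in probe sets with several symbols, and 1 in none. Such shared probe sets numbered 30, of which 9 named H3 genes, 8 H2A, 7 H2B, 5 H4 and 1 genes of both H1 and H2B. Identical values on all arrays were found in 3 pairs of them, which left 27 distinct ones, and in 0 pairs of the 22 single-symbol probe sets. Of the 21 genes, 11 also stood in a shared probe set. How far the single-symbol probe sets bind other copies was not tested.

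Of the 21 genes, 16 lie on chromosome 13 and 5 on chromosome 3. On chromosome 13, H4c12 and H2ac15 are neighbouring genes, and H1f5 follows them with a single H2B gene, H2bc15, between. H2bc12 and H4c9 are also neighbours, as are H4c8 and H2ac10. On chromosome 3, H2ac21, H2ac20 and H2bc21 stand in a row.

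Promoter windows were held by RefSeq (GRCm38.p6) for 19 of the 21 genes, and H2bc21 and H4c14 had none in the table used. The 250 bases before each start were searched on both strands for 5 motifs known from histone promoters. The 150 bases before the start follow for H1f5 and H4c9, which gave the calls described later. They are also given for H1f2 and H4c12, members of the same families, and for H2ac10 and H2ac15, which are H2A genes. They run 5′ to 3′ on the gene's own strand. Capitals mark exact matches to a motif or its reverse complement.
H1f5, chr13:21780626-21780775, minus strand: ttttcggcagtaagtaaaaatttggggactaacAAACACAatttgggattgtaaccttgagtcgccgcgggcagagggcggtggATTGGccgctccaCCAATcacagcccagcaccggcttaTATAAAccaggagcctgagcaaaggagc
H1f2, chr13:23738657-23738806, plus strand: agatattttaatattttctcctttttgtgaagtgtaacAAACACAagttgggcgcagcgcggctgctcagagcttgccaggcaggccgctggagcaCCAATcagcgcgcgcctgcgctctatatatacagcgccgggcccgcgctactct
H4c9, chr13:22041363-22041512, minus strand: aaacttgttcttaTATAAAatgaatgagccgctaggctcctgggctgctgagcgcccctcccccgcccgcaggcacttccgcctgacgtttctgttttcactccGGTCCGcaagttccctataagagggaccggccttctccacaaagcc
H4c12, chr13:21750554-21750703, minus strand: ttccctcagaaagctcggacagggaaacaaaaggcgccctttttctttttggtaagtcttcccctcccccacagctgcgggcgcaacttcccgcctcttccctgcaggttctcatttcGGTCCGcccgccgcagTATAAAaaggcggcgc
H2ac10, chr13:23533725-23533874, plus strand: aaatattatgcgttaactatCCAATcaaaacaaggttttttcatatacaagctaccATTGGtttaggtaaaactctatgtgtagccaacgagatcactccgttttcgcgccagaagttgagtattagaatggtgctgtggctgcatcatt
H2ac15, chr13:21753913-21754062, minus strand: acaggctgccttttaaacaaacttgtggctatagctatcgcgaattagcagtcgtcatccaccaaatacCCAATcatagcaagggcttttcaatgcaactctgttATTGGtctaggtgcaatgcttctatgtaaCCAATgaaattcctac

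The AAACACA box of H1 promoters was present in H1f5 and H1f2, where it lay 117 and 112 bases before the start, with CCAAT 53 and 54 bases before it. H1f1 lacked the box. Across the 19 genes AAACACA was found in 5, against 6.25% of 32851 windows of the same length. These 5 were 2 of 3 H1, 1 of 5 H2A and 2 of 6 H2B windows. The letters GGTCCG, the core of an element known from H4 promoters, were found in 3 of 5 H4 windows, among them H4c9 and H4c12, and in 6.72% of all windows. H4c9 and H4c12 carried them 46 and 32 bases before the start. CCAAT was found in 15 of 19 genes against 33.8% of all windows, and in 1 of the 5 H4 windows. The octamer ATTTGCAT, known from H2B promoters, was found in 5 of 6 H2B windows, in 2 of 5 H2A windows and in 1.6% of all windows. TATAAA was found in 12 of 19 genes against 12.4% of all windows, at any position on either strand. The match nearest the start lay from 10 (H2bc3) to 212 (H2bc22) bases before it. In H1f5 it lay 28, in H4c12 16 and in H4c9 137 bases before the start. These matches describe the letters and say nothing of which factor was bound.

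The deposited values are log2 RMA levels, in which 1 unit is a doubling. Array medians reached 1.64 at most, and a level at or under this value is called the floor here. Of the 22 probe sets, 10 had a mean over all arrays at or under the floor, namely H1f1, H2ac1, H2bc1, H2bc12, H2bc14, H2bc22, H4c1, H4c14, H4c17 and the second probe set of H2ac21. Their values ran from 0.49 to 2.36, beside a lowest value of -0.189 in the whole table, so a fall has little room there. H2ac1 and H2bc1 are histones of male germ cells, and with H1f6, the linker histone of those cells, all 3 stayed at or under the floor in every group. All 7 measured marker genes of the adrenal cortex were above the floor in every group. Within groups, arrays correlated with each other at 0.984 to 0.988 on average, and no 2 arrays were identical. Since whole glands were used, fewer cells in S phase and less histone RNA per cell cannot be told apart.

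**Figure D1:**
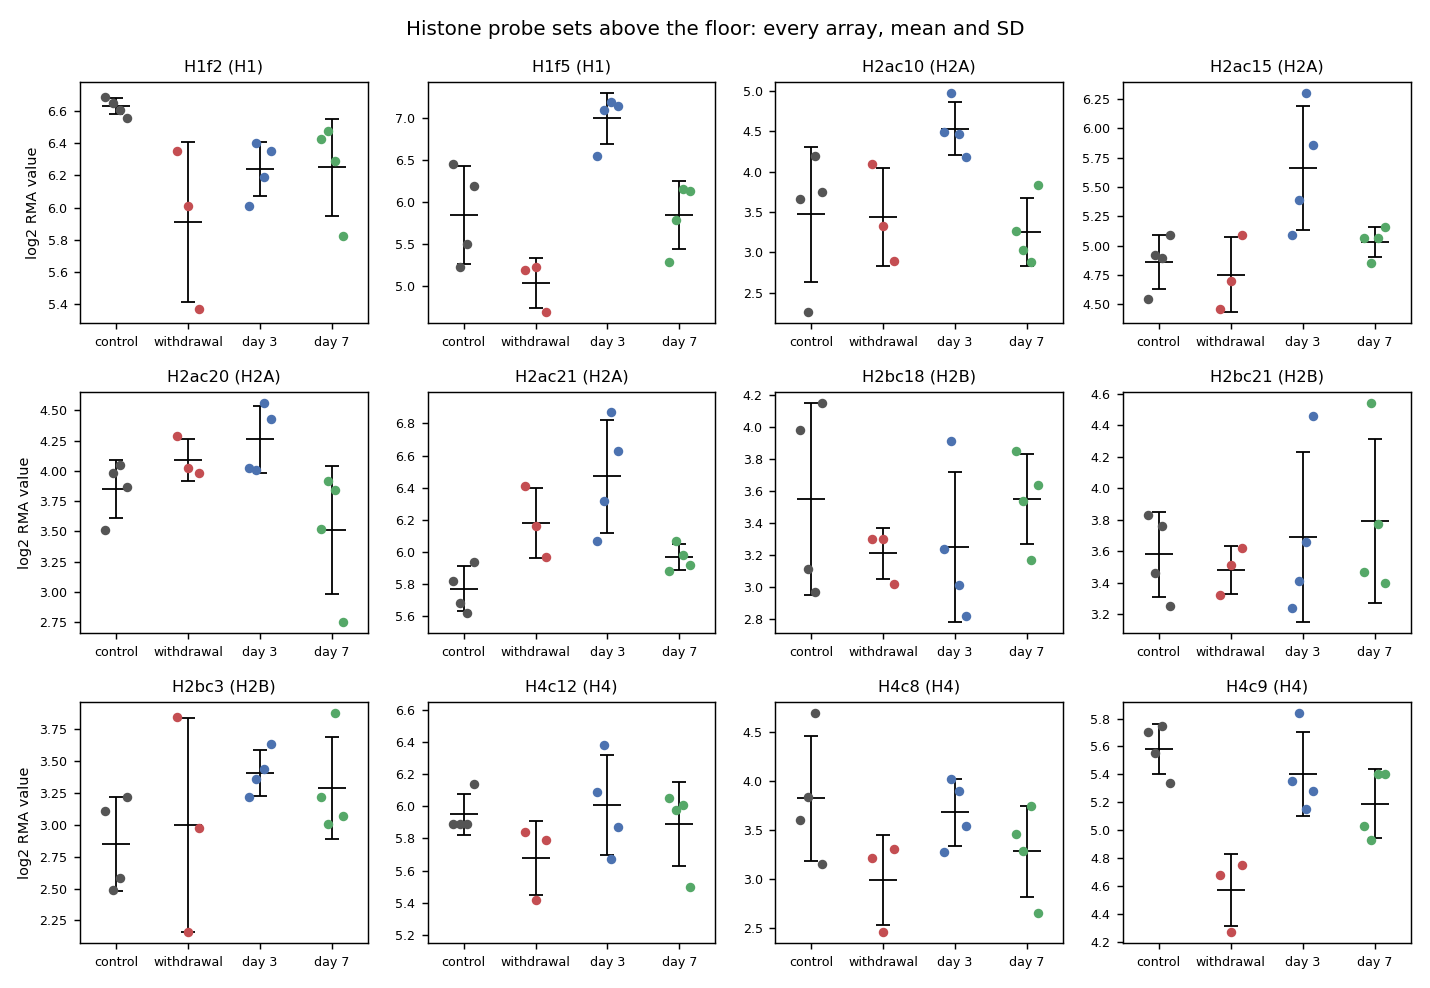
Log2 RMA value (vertical axis, a separate range in each panel) of the 12 histone probe sets whose mean over all arrays exceeded the floor, in the 4 groups on the horizontal axis. Points are single arrays, the long bar is the group mean and the whiskers are 1 SD. H1f5 was highest at day 3, from 6.55 to 7.20, and the 3 withdrawal arrays of H4c9, from 4.27 to 4.75, lay under all others.

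At withdrawal, 1 of the 22 histone probe sets, H4c9, was lower than in the controls and 0 were higher. H4c9 encodes the core histone H4. Its fall was 2.03-fold and left the 3 withdrawal arrays under the other 12. At day 3, 2 were higher than at withdrawal, the linker histone gene H1f5 by 3.9-fold and H4c9 by 1.79-fold. The other 4 comparisons called 0 histone probe sets. On the same arrays, 9 of 9 macrophage markers were higher at withdrawal than in controls, and 14 of 27 mitosis genes rose from withdrawal to day 3.

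The test was limma's, fitted on the 22399 probe sets with all 4 groups, and a call is an adjusted p (Benjamini-Hochberg) under 0.05. For withdrawal against control it called 2.36% of probe sets higher and 1.73% lower, beside 1 of 22 histone probe sets lower. For day 3 against withdrawal it called 1.32% higher and 0.862% lower, beside 2 of 22 histone probe sets higher and 0 lower. At an unadjusted p under 0.05, 1 histone probe set was higher and 5 were lower at withdrawal, beside 9.61% and 7.13% of all probe sets. For day 3 against withdrawal, 5 were higher and 0 lower, beside 6.39% and 7.3% of all. H4c14, at the floor, was counted both among the 5 lower at withdrawal and among these 5 higher. The withdrawal group enters both of these comparisons, so a low value there bears on both.

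H1f5 encodes a linker histone of dividing cells. Its levels were 6.46, 5.23, 5.50 and 6.20 in the control arrays, and 5.19, 5.23 and 4.69 at withdrawal. At day 3 they were 6.55, 7.10, 7.20 and 7.15, and at day 7 they were 5.29, 5.79, 6.16 and 6.14. The day 3 arrays were higher than all others, and the day 7 arrays lay within the range of the controls. The lowest control array and the highest withdrawal array both read 5.23. Day 3 exceeded withdrawal by 1.96 ± 0.29 (SE, log2; 4 against 3 arrays; limma adjusted p = 0.00237). Against control, the differences were -0.81 ± 0.29 at withdrawal (limma adjusted p = 0.143) and 1.15 ± 0.26 at day 3 (limma adjusted p = 0.105), and neither passed.

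H1f2 encodes another replication-dependent linker histone. It read 6.69, 6.65, 6.61 and 6.56 in controls, and 6.35, 6.01 and 5.37 at withdrawal. At day 3 it read 6.01, 6.40, 6.19 and 6.35, and at day 7 it read 6.43, 6.48, 6.29 and 5.82. The 4 control arrays were the highest of the 15. The withdrawal mean was 5.91 ± 0.50 (SD, n = 3) and the control mean 6.63 ± 0.05 (SD, n = 4). The difference of -0.72 ± 0.20 (SE, log2) missed the threshold (limma adjusted p = 0.0545) and passed in 2 of 15 fits without 1 array, namely without withdrawal replicate 1 (0.0207) or day 7 replicate 4 (0.035), and in 3 of 8 other settings. Without withdrawal replicate 3, the lowest array, the difference was -0.45 (limma adjusted p = 0.213). At day 3 H1f2 differed from withdrawal by 0.33 on the log2 scale, against 1.96 for H1f5. H1f1, the remaining linker histone, had a mean over all arrays of 1.63, at the floor, and group means from 1.36 to 1.79, of which 2 of 4 were at the floor.

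Among the H4 genes, H4c9 gave the calls. Its control arrays read 5.70, 5.55, 5.75 and 5.34, and its withdrawal arrays 4.68, 4.27 and 4.75. Day 3 arrays read 5.35, 5.84, 5.15 and 5.28, and day 7 arrays 5.03, 4.93, 5.40 and 5.40. No other array was as low as any withdrawal array. The difference at withdrawal was -1.02 ± 0.18 (SE, log2; limma adjusted p = 0.00477). Day 3 exceeded withdrawal by 0.84 ± 0.18 (SE, log2; limma adjusted p = 0.0244). This second call was lost without withdrawal replicate 1 (limma adjusted p = 0.0507), without withdrawal replicate 2 (0.123) or without day 3 replicate 2 (0.0527). A shared probe set that names H4c9 among other H4 genes, 17285706, went the other way at withdrawal. Its group means were 1.93, 2.18, 2.23 and 1.88 from control to day 7, little above the floor. Withdrawal and control did not overlap there, and the difference of 0.25 ± 0.11 (SE, log2) was not called (limma adjusted p = 0.344).

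H4c12 encodes the same core histone from a gene elsewhere in the chromosome 13 cluster. Its levels were 5.89, 5.89, 5.89 and 6.14 in controls and 5.84, 5.42 and 5.79 at withdrawal. They were 6.09, 6.38, 5.67 and 5.87 at day 3 and 6.05, 5.98, 6.01 and 5.50 at day 7. The withdrawal arrays lay under the controls but overlapped with day 3 and day 7. The differences were -0.27 ± 0.17 (SE, log2; limma adjusted p = 0.47) at withdrawal and 0.32 ± 0.17 (limma adjusted p = 0.44) at day 3 against withdrawal. H4c8 ranged from 2.46 to 4.69 over the arrays and had its lowest group mean, 2.99, at withdrawal, with a difference of -0.82 ± 0.33 from control (limma adjusted p = 0.211). The median difference of the 6 H4 probe sets was -0.38 at withdrawal and 0.40 at day 3 against withdrawal, 3 of the 6 being at the floor.

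**Figure D2:**
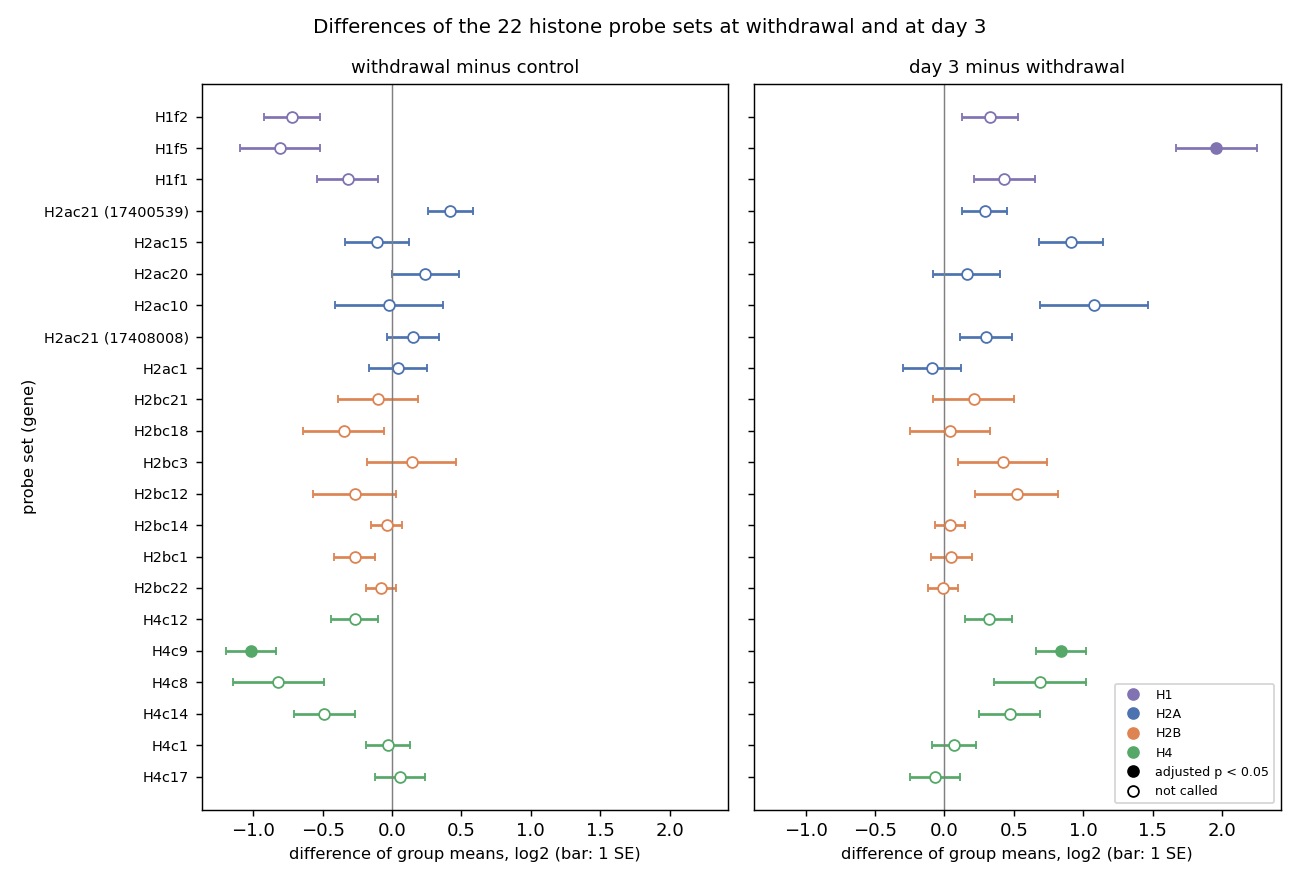
Difference of group means (horizontal axis, log2) for withdrawal minus control and for day 3 minus withdrawal, for each of the 22 histone probe sets (vertical axis), coloured by family. Bars are 1 SE and filled points passed an adjusted p under 0.05. H4c9 is filled on both sides, at -1.02 and 0.84, and H1f5 on the right, at 1.96.

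None of the 6 H2A probe sets was called in any comparison. H2ac15 came nearest in day 3 against withdrawal. Its levels were 4.54, 4.92, 4.89 and 5.09 in controls and 4.46, 4.70 and 5.09 at withdrawal. They were 5.09, 5.39, 6.30 and 5.86 at day 3 and 5.06, 4.85, 5.06 and 5.16 at day 7. At day 3, 3 of 4 arrays were above all arrays of the other groups, and replicate 1 was not. The difference was 0.91 ± 0.23 (SE, log2; limma adjusted p = 0.0586). It passed in 1 of 15 fits without 1 array, that without day 3 replicate 1 (1.10; limma adjusted p = 0.0208), and in 4 of 8 other settings. The limma adjusted p reached 0.195 without withdrawal replicate 1 and 0.228 with only the 2 groups compared.

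H2ac10, the H2A gene beside H4c8, read 3.66, 2.26, 4.19 and 3.75 in controls and 4.10, 3.33 and 2.90 at withdrawal. At day 3 it read 4.49, 4.97, 4.46 and 4.18, and at day 7 it read 3.26, 3.03, 2.88 and 3.84. The day 3 arrays did not overlap with withdrawal or day 7 and overlapped with the controls at 4.18 against 4.19. Day 3 differed from withdrawal by 1.08 ± 0.39 (SE, log2; limma adjusted p = 0.201), a spread too wide for a call.

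The probe set of H2ac21 above the floor measures an H2A gene of chromosome 3. It read 5.82, 5.68, 5.62 and 5.94 in controls and 6.41, 6.16 and 5.97 at withdrawal. Day 3 arrays read 6.07, 6.32, 6.87 and 6.63, and day 7 arrays 5.88, 6.07, 5.98 and 5.92. All withdrawal and day 3 arrays were above the controls. The differences from control were 0.42 ± 0.16 at withdrawal (SE, log2; limma adjusted p = 0.196) and 0.71 ± 0.15 at day 3 (limma adjusted p = 0.0756). The day 3 difference passed in 1 of 15 fits without 1 array, that without day 3 replicate 1 (limma adjusted p = 0.0478), and the adjusted p reached 0.215 without day 3 replicate 4. Its neighbour H2ac20 had group means of 3.85, 4.09, 4.26 and 3.51 from control to day 7. The shared probe set 17400545, which names H2ac18, H2ac19 and H2ac20, went the other way at withdrawal. Its group means were 9.92, 9.58, 9.69 and 9.73 from control to day 7. Withdrawal and control did not overlap there, and the difference of -0.34 ± 0.11 (SE, log2) was not called (limma adjusted p = 0.152). The median difference of the 6 H2A probe sets with 1 symbol was 0.10 at withdrawal and 0.30 at day 3 against withdrawal.

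The 7 H2B probe sets with 1 symbol gave 0 calls, and 4 of them were at the floor. H2bc21 read 3.83, 3.46, 3.76 and 3.25 in controls, 3.32, 3.51 and 3.62 at withdrawal, 3.24, 3.41, 3.66 and 4.46 at day 3, and 3.47, 4.54, 3.77 and 3.40 at day 7. A single array of day 3 and one of day 7 stood above the rest, and the groups overlapped. H2bc18 ranged from 2.82 to 4.15 and H2bc3 from 2.16 to 3.88, with overlapping groups in both. The median difference of the H2B probe sets was -0.10 at withdrawal and 0.05 at day 3 against withdrawal.

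Across the 22 probe sets, 16 had a lower mean at withdrawal than in controls and 6 a higher one, with a median difference of -0.10. Of all probe sets tested, 48.7% had a higher mean, and their median was -0.01. For day 3 against withdrawal 19 were higher and 3 lower, with a median of 0.31, beside 48.9% higher and a median of -0.00 for all probe sets. These counts include the 10 probe sets at the floor. They moved by at most 1 probe set under array median centring or quantile normalization, and the median at withdrawal was -0.20 with quantile normalization.

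At day 7 against withdrawal, 0 of the 22 histone probe sets were called, beside 0.929% of all probe sets higher and 0.866% lower. At an unadjusted p under 0.05, H4c9 and H1f5 were higher and H2ac20 was lower, which is 2 and 1 of 22 beside 6.22% and 7.19% of all probe sets. H4c9 differed by 0.62 ± 0.18 (SE, log2; limma adjusted p = 0.0993) and H1f5 by 0.81 ± 0.29 (limma adjusted p = 0.194). The median of the 22 was 0.23, with 17 higher and 5 lower, beside a median of 0.0 and 51% higher for all probe sets. Probe sets at the floor are included in these counts.

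Day 3 against control called 0 of 22, beside 0.0848% of all probe sets higher and 0.0402% lower. At an unadjusted p under 0.05, 5 were higher (H1f5, H2ac10, H2ac15 and both H2ac21 probe sets) and H1f2 was lower, by 0.39 on the log2 scale, beside 5.24% and 4.72% of all probe sets. The second H2ac21 probe set was at the floor. Day 7 against control called 0, beside 0.0134% higher and 0.00446% lower, and 0 and 1 at an unadjusted p under 0.05, beside 3.2% and 2.72% of all. This 1 was H4c9, with a difference of -0.40 ± 0.17 (limma adjusted p = 0.802).

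Day 7 against day 3 called 0 histone probe sets and 0% of all probe sets in either direction. At an unadjusted p under 0.05, 0 histone probe sets were higher and 6 lower, beside 3.64% and 3.42% of all probe sets. The 6 were H1f5, H2ac10, H2ac15, H2ac20 and both H2ac21 probe sets, of which the second was at the floor. The differences were -1.15 ± 0.26 for H1f5 (SE, log2; limma adjusted p = 0.294) and -1.27 ± 0.36 for H2ac10 (limma adjusted p = 0.414). Comparisons that share a group share its arrays, so these counts are not separate lines of evidence.

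The shared probe sets were tested in a fit over all 32736 probe sets, and a change in them cannot be assigned to 1 gene. Of the 30, 1 was lower at withdrawal and 2 were higher at day 3 against withdrawal. This fit called 1.37% of all probe sets higher and 1.1% lower at withdrawal, and 0.782% higher and 0.455% lower at day 3 against withdrawal. In the other 4 comparisons limma called 0 of the 30. In those comparisons it called 0.568% of all higher and 0.4% lower for day 7 against withdrawal, 0.0183% and 0.0122% for day 3 against control, 0.00916% and 0.0122% for day 7 against control, and 0% in either direction for day 7 against day 3.

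With each identical pair counted once, the 27 distinct shared probe sets were read at an unadjusted p under 0.05. At withdrawal 1 was higher and 6 lower than in controls, beside 7.75% and 6.3% of all probe sets. At day 3 against withdrawal 7 were higher and 0 lower, beside 5.52% and 6.08%. At day 7 against withdrawal the counts were 2 and 1, beside 5.12% and 6.06%. At day 3 against control they were 5 and 4, beside 4.41% and 4.26%, and at day 7 against control 0 and 2, beside 2.77% and 2.87%. At day 7 against day 3, 0 were higher and 9 lower, beside 3.15% and 3.32%. The median difference of the 27 was -0.18 at withdrawal and 0.18 at day 3 against withdrawal, beside -0.01 and -0.00 for the probe sets with 1 symbol. These counts and medians include shared probe sets at the floor. Among the 9 lower at day 7 than at day 3, 17285746, 17291008, 17291057 and 17291208 were at the floor. Their means over all arrays were 1.15, 0.95, 0.99 and 1.07. Of these, 17291008 was also among the 7 higher at day 3 against withdrawal.

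The shared probe set of 10 H2A symbols, 17291012, had levels of 6.18, 5.87, 6.09 and 6.03 in controls and 5.75, 5.76 and 6.09 at withdrawal. Day 3 arrays read 6.51, 7.01, 6.76 and 6.62, and day 7 arrays 5.89, 5.95, 6.28 and 6.04. The day 3 arrays were above all the others. Day 3 exceeded withdrawal by 0.86 ± 0.14 (SE, log2; limma adjusted p = 0.00734), and the call held in each of the 15 fits that left out 1 array. The probe set of 4 H2B symbols, 17290997, read 7.99, 8.33 and 8.30 at withdrawal and 8.75, 9.31, 9.43 and 9.17 at day 3, without overlap. Its difference was 0.96 ± 0.18 (SE, log2; limma adjusted p = 0.0177). The call was lost without withdrawal replicate 1 or day 3 replicate 2, with an adjusted p of at most 0.075 in limma.

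The call at withdrawal came from 17285851, which carries H2bc4, H2bc8 and H2bc6. It read 9.76, 9.63, 9.69 and 9.52 in controls and 8.97, 8.90 and 9.22 at withdrawal. Day 3 arrays read 9.12, 9.49, 9.31 and 9.28, and day 7 arrays 9.37, 9.44, 9.21 and 9.40. The control arrays were above the other 11. The difference was -0.62 ± 0.11 (SE, log2; limma adjusted p = 0.00815) and reached an adjusted p of 0.0502 in limma without withdrawal replicate 2. 

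No H3 gene had a probe set of its own, and 2 shared probe sets that carry the same 8 H3 symbols, chosen after their values were seen, are described in their place. The first, 17400555, had group means of 6.46, 6.11, 6.64 and 6.16 from control to day 7. Its day 3 difference from withdrawal was 0.54 ± 0.15 (SE, log2; limma adjusted p = 0.132). The other, 17408015, read 7.26, 5.94, 6.55 and 6.84 in controls and 5.73, 5.18 and 5.81 at withdrawal, without overlap. Day 3 arrays read 5.13, 6.39, 5.68 and 5.78, and day 7 arrays 6.43, 6.14, 5.50 and 6.54, and both groups overlapped with withdrawal. Its differences were -1.07 ± 0.33 (SE, log2; limma adjusted p = 0.126) at withdrawal, 0.17 ± 0.33 (0.919) at day 3 against withdrawal and -0.90 ± 0.31 (0.395) at day 3 against control. A further probe set of the same 8 symbols above the floor, 17291183, had group means of 3.61, 2.67, 2.80 and 2.91 from control to day 7. Its differences were -0.93 ± 0.38 (SE, log2; limma adjusted p = 0.267) at withdrawal and -0.81 ± 0.35 (0.533) at day 3 against control. The day 3 mean was thus above the control mean in 17400555 and under it in 17408015 and 17291183, and none of these differences passed.

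**Figure D3:**
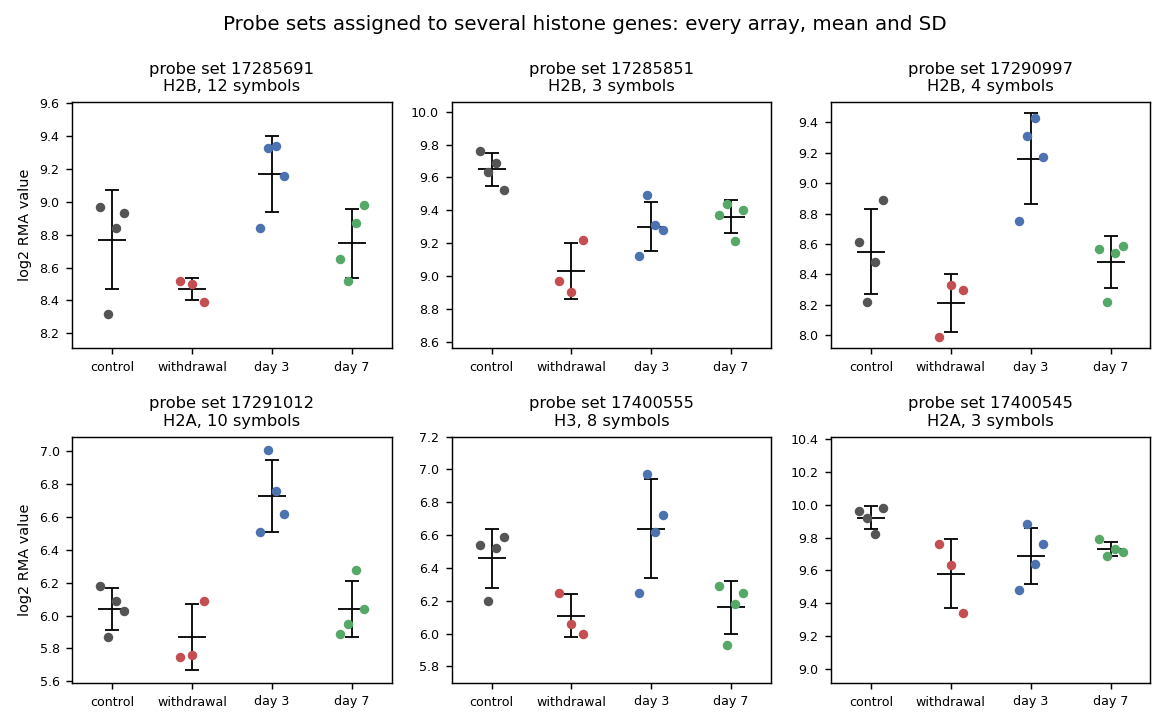
Log2 RMA value (vertical axis) of 6 probe sets that carry several histone symbols, by group, with a point per array, the mean (long bar) and 1 SD (whiskers). The H2A probe set of 10 symbols was highest at day 3, from 6.51 to 7.01, and the H2B probe set of 3 symbols was highest in controls, from 9.52 to 9.76.

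Genes of the cell cycle were read from the same fit. Of 27 measured mitosis genes, 14 rose from withdrawal to day 3 and 0 fell, with a median difference of 1.00. Nuf2, a kinetochore protein, rose by 1.63 ± 0.29 (SE, log2; limma adjusted p = 0.00889), and Top2a, which untangles DNA, by 1.32 ± 0.22 (0.00537). Birc5, a subunit of the chromosomal passenger complex, rose by 1.26 ± 0.17 (0.00191). Mki67, the proliferation marker, read 3.86, 4.41 and 4.60 at withdrawal and 5.85, 5.23, 5.49 and 5.62 at day 3, and rose by 1.25 ± 0.22 (0.00733). Control arrays of Mki67 ran from 4.41 to 4.82, under all day 3 arrays. Without withdrawal replicate 2 the count of 14 became 5. At an unadjusted p under 0.05, 25 were higher and 0 lower, beside 6.39% and 7.3% of all probe sets. Day 3 against control gave 25 and 0, beside 5.24% and 4.72%, with 0 called. Day 7 against day 3 gave 0 and 21, beside 3.64% and 3.42%, with 0 called. Summed on the linear scale, the 27 genes reached 360 to 504 in controls, 318 to 389 at withdrawal, 677 to 805 at day 3 and 329 to 503 at day 7.

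Of 36 measured S phase genes, 3 rose from withdrawal to day 3 and 0 fell, with a median of 0.30. They were Uhrf1, which marks newly copied DNA for methylation (1.46 ± 0.32, SE, log2; limma adjusted p = 0.0284), Dtl, part of a ubiquitin ligase of S phase (1.16 ± 0.21; 0.00903), and Cdc45 of the replicative helicase (0.92 ± 0.21; 0.0378). Cdc45 was also lower at withdrawal than in controls, by -0.80 ± 0.21 (limma adjusted p = 0.0479), a call lost in most fits without 1 array. The count of 3 became 1 without any of the 3 withdrawal arrays, day 3 replicate 2 or day 3 replicate 3. At an unadjusted p under 0.05, 13 of 36 were higher and 0 lower, beside 6.39% and 7.3% of all probe sets. Day 3 against control gave 12 and 0, beside 5.24% and 4.72%, with 0 called. Day 7 against day 3 gave 0 and 11, beside 3.64% and 3.42%, with 0 called. Pcna, the sliding clamp of replication, had group means of 8.05, 8.10, 8.29 and 7.94 from control to day 7. Rrm2, a subunit of ribonucleotide reductase, differed by 0.69 ± 0.24 at day 3 from withdrawal (limma adjusted p = 0.186), and Ccna2, cyclin A, by 1.01 ± 0.32 (0.133).

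The genes that transcribe and process histone messenger RNAs gave 0 calls of 15 in all 6 comparisons, with 1 higher and 2 lower at an unadjusted p under 0.05 for withdrawal against control and 0 and 1 for day 3 against withdrawal. Slbp, the stem-loop binding protein, had group means of 6.41, 6.38, 6.46 and 6.36 from control to day 7. Its difference of 0.08 ± 0.11 (SE, log2) between day 3 and withdrawal lay within the spread between arrays (limma adjusted p = 0.842). Npat, the coactivator of histone genes at S phase entry, differed by 0.39 ± 0.14 at withdrawal (limma adjusted p = 0.165) and by -0.35 ± 0.14 at day 3 against withdrawal (0.291). The 20 histone chaperones and import factors also gave 0 calls. At an unadjusted p under 0.05, 3 were higher and 0 lower at withdrawal, and 0 and 2 at day 3 against withdrawal. Beside the unadjusted counts of both lists stand 9.61% and 7.13% of all probe sets at withdrawal, and 6.39% and 7.3% at day 3. Beside the 0 calls stand 2.36% and 1.73% of all probe sets at withdrawal, and 1.32% and 0.862% at day 3.

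Replication-independent variants, which are made outside S phase as well, were measured for 8 genes. Cenpa, the H3 variant of centromeres, read 3.44, 3.46 and 3.20 at withdrawal and 4.56, 4.65, 3.79 and 3.96 at day 3, and rose by 0.88 ± 0.18 (SE, log2; limma adjusted p = 0.0173). It was the single call in this list, beside 1.32% of all probe sets higher and 0.862% lower. The count was 0 without withdrawal replicate 2 or replicate 3. At an unadjusted p under 0.05, 3 of the 8 were higher and 0 lower, beside 6.39% and 7.3% of all probe sets. H2ax, the variant phosphorylated at DNA breaks, differed by 0.53 ± 0.22 (limma adjusted p = 0.296). H2az1, a variant found at promoters, scattered between 2.65 and 5.37 over the arrays and differed by 1.17 ± 0.65 (limma adjusted p = 0.468).

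**Figure D4:**
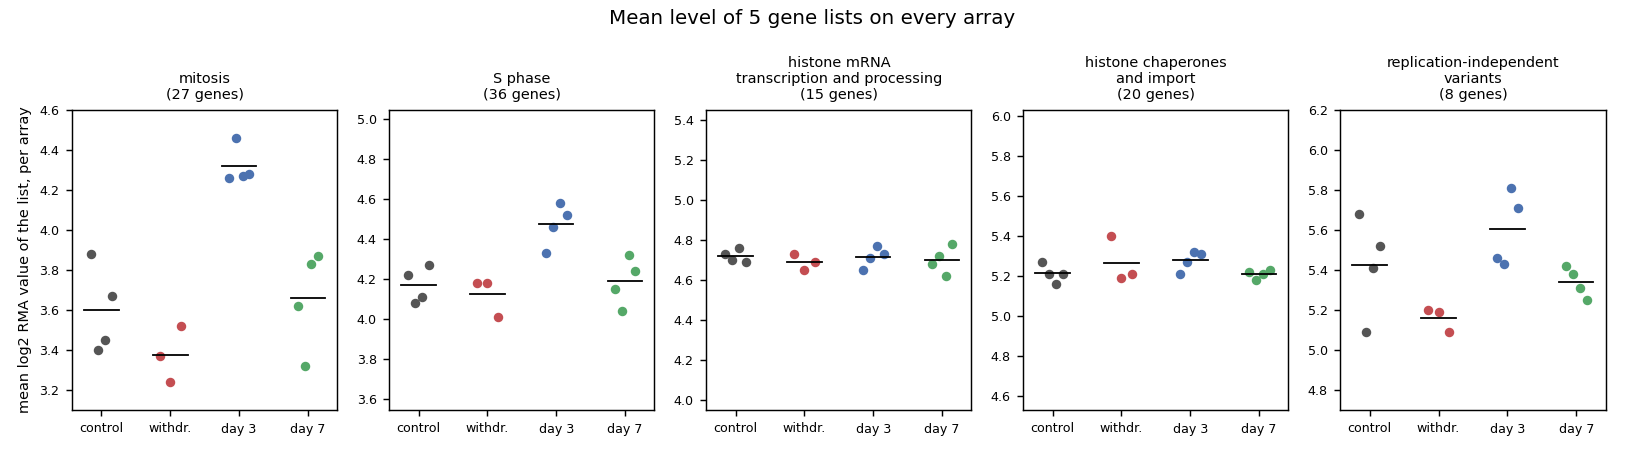
Mean log2 RMA value of each gene list on every array (points, vertical axes of equal length), by group, with the group mean as a bar. Mitosis genes were highest at day 3, from 4.26 to 4.46, while the genes of histone messenger RNA transcription and processing lay between 4.62 and 4.78 on all 15 arrays.

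Markers of other cells in the gland moved in the same comparisons. Over all probe sets, 2.36% were called higher and 1.73% lower at withdrawal, and 1.32% and 0.862% at day 3 against withdrawal. All 9 macrophage markers were higher at withdrawal than in controls, and 6 of 9 were lower at day 3 than at withdrawal. Without withdrawal replicate 2 these counts were 7 and 0, and the second was 2 or 3 without withdrawal replicate 1 or 3 or day 3 replicate 1 or 3. Their summed linear level was 763 to 879 in controls, 2280 to 3220 at withdrawal, 1304 to 2250 at day 3 and 940 to 2041 at day 7, and 0 of the 9 were at the floor in every group. Of the 7 cortex markers, 4 were lower and 1 higher at withdrawal, and 3 were higher at day 3 than at withdrawal, with sums of 6334 to 6597, 4646 to 5201, 5862 to 6576 and 6328 to 6505. Of the 7 endothelial markers, 1 was lower at withdrawal and 2 were higher at day 3 than at withdrawal, with sums of 1197 to 1288, 897 to 1003, 1143 to 1330 and 1154 to 1453. Both endothelial counts were 0 without withdrawal replicate 2, the second was 1 without withdrawal replicate 1 or 3 or day 3 replicate 2, 3 or 4, and the first was 2 without control replicate 1 or 4. All 3 B cell markers were at the floor in every group, as were 3 of 5 neutrophil markers, of which 0 were called at withdrawal or at day 3. The neutrophil sum was 13.9 to 28.1 in controls, 27.0 to 38.4 at withdrawal and 27.4 to 398 at day 3. The value of 398 came from day 3 replicate 2, where S100a8 read 7.69 against 2.89 to 3.5 in the other day 3 arrays, and S100a9 7.47 against 3.78 to 4.15. That array is one of those without which the calls of H4c9 and 17290997 at day 3 against withdrawal were lost. Cd4 was the 1 of 5 T cell markers that was higher at withdrawal, 1 of 7 fibroblast and capsule markers (Tcf21) was lower at day 3 than at withdrawal, and 0 of 6 medulla markers and the 1 measured red blood cell precursor marker were called in either comparison. The T cell count was 0 without control replicate 2, 3 or 4 or withdrawal replicate 1 or 3. The fibroblast count was 0 without control replicate 3, withdrawal replicate 1 or 3, or day 3 replicate 1 or 2, and 2 without day 3 replicate 3 or day 7 replicate 4. At an unadjusted p under 0.05, all 7 endothelial markers were lower at withdrawal, and 5 were higher at day 3 against it. Of the fibroblast and capsule markers, 3 were higher at withdrawal and 5 lower at day 3, with 0 the other way. Cortex markers gave 1 higher and 5 lower at withdrawal, and 4 higher and 1 lower at day 3. All probe sets gave 9.61% higher and 7.13% lower at withdrawal, and 6.39% and 7.3% at day 3. The part of these cells in the histone differences was not tested.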

How the data were processed

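Per the labels' protocols, biotinylated targets were made from total RNA of 15 adrenal samples. The values the authors deposited are log2 levels. The submitters' processing notes name RMA and oligo, and versions or filters were not given in the sources used here. Platform annotation gave 22399 probe sets 1 symbol, 1607 several and 8730 none; 22261 of the first matched RefSeq by Entrez identifier, and 0 symbols changed. Limma 3.58.1 in R 4.3.3 (lmFit, eBayes) was fitted to these values, without further normalization, with 4 groups in 1 model and no covariate, with Benjamini-Hochberg adjustment over the tested probe sets of each comparison. Probe sets with several histone symbols came from the same fit over all 32736. The script was tested on simulated data.

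Group levels are means ± SD and differences carry the standard error of the model. The number of arrays limits the precision. Arrays with the same replicate number did not deviate together (21 pairs, r from -0.13 to 0.057), so no pairing was used.

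Named genes were every called histone probe set, the 3 with the highest mean in each family, the 3 with the largest range of group means, and in each other list up to 4 called members plus Slbp, Npat, H2az1, H2ax, Cenpa, Pcna, Rrm2, Mki67 and Ccna2. Germ cell histones, medulla, T cell, red blood cell precursor and fibroblast markers were also listed. The members and lists were chosen with earlier results of these data known. Alternatives were array median centring, quantile normalization, a filter on mean level above 3, all probe sets, 1 probe set per gene, limma's trend and robust options, 2 groups at a time, the replicate block, stricter calls, and leaving out each array.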

Additional observations from a re-analysis of the deposited data

Results flagged for a closer look

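In groups of 4 arrays, a value was listed where its gap to the nearest other array exceeded Dixon's critical share of the whole range. Of 93 such groups among the histone probe sets and the cell cycle genes named in every comparison, 10 had such a value, and chance gives about 1 in 20.

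Of the histone genes called or shown above the floor, H1f5 in day 3 replicate 1 read 6.55 against 7.10 to 7.20 in the other day 3 arrays, still above every array of the other groups. H4c12 read 6.14 in control replicate 4 against 5.89 in the other controls, and 5.50 in day 7 replicate 4 against 5.98 to 6.05. At the floor, H2bc12 read 2.34 in control replicate 4 against 0.92 to 1.14, H2ac1 read 1.56 in day 7 replicate 2 against 0.84 to 0.94, and H4c1 read 1.09 in control replicate 1 against 0.96 to 0.97.

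Among other genes, Cenpa read 3.49 in control replicate 3 against 3.78 in the other controls. Rrm2 read 4.70 in control replicate 4 against 4.07 to 4.16, and 3.97 in day 3 replicate 4 against 4.88 to 4.92. Ccna2 read 4.39 in day 7 replicate 2 against 5.73 to 5.97.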

How the results depend on the processing

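No histone probe set reversed a called difference under any alternative run. At withdrawal, 1 was lower than in controls, and 2 were with quantile normalization, with the filter on dim probe sets and with the trend and robust options, the second being H1f2. Leaving out 1 array gave 1 to 2. At day 3 against withdrawal 2 were higher, and 1 was at an adjusted p under 0.01, with a difference of at least 1 log2 unit required, or with 2 groups alone. With quantile normalization, the dim filter or the trend and robust options 3 were, the third being H2ac15. Leaving out 1 array gave 1 to 3, with 3 without day 3 replicate 1. At day 3 against control 0 were higher, and 1, H2ac21, was with the dim filter, with the trend and robust options and without day 3 replicate 1; leaving out 1 array gave 0 to 1. The cause of these moves was not tested.

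H1f5 at day 3 against withdrawal passed in 15 of 15 fits without 1 array (limma adjusted p from 0.00177 to 0.0131) and 8 of 8 others, and H4c9 at withdrawal in 15 of 15 (0.00209 to 0.0333) and 8 of 8. With the replicate block the counts were again 1 lower and 2 higher, but H4c9 at day 3 against withdrawal no longer passed (limma adjusted p = 0.0735) and H2ac15 did (0.047). For the shared probe sets, tried with alternatives added after seeing the data, the H2B call at day 3 (17290997) was lost with the replicate block (limma adjusted p = 0.0542).

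The mitosis count of 14 was 6 at an adjusted p under 0.01, 7 with 2 groups alone and 9 with the replicate block. The S phase count of 3 was 1 under each of these settings. Over all probe sets, the 528 higher at withdrawal ranged from 154 to 671 and the 388 lower from 81 to 533, and without withdrawal replicate 2 they were 248 and 216. The 296 higher at day 3 against withdrawal ranged from 79 to 378 and the 193 lower from 39 to 258, with 129 and 80 without withdrawal replicate 2. Day 7 against withdrawal ranged from 55 to 344 higher and 30 to 292 lower, around 208 and 194. Day 3 against control gave 19 higher and 9 lower, 9 and 10 with quantile normalization, and 3 to 49 and 1 to 36 over the alternatives. Day 7 against control gave 3 and 1, with 0 to 4 in each direction over the alternatives, and day 7 against day 3 gave 0, with up to 7 lower without day 3 replicate 1. Groups of 3 and 4 arrays, probes shared between copies and the 10 probe sets at the floor limit what could be detected.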
